A study of Mus musculus with 40 samples.

Results

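The erythroid genes of the marrow, 9 genes taken as markers of red blood cell formation, were followed through the repair of a resected mouse rib. In immature and in mature animals all 9 were lower 14 days after resection than in the rib at baseline, by 3.28-fold to 15.9-fold, beside 15.1% of all genes tested that were lower in immature and 16.4% in mature mice. The 9 members were taken by their gene symbols: Hba-a1 and Hba-a2, Hbb-bs and Hbb-bt, Alas2, Slc4a1, Epor, Klf1 and Gata1. They are 9 of the 21204 genes in the deposited filtered count table, which holds part of a full table of 48733 genes, and each of them passed that filter and was tested. They were listed by name and not ranked by a measured value, but earlier results of these data were known.

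The samples were snap-frozen pieces of rib from wild-type female C57BL/6 mice, which were either immature, at 7 weeks, or mature, at more than 10 months. Each age had 5 stages: baseline, the day of resection (0dpr), and day 2 (2dpr), day 5 (5dpr) and day 14 (14dpr) after it. Per the labels, baseline tissue was a composite of bone, marrow and intercostal muscle, and the later samples were callus, the tissue that fills a bone defect. Of the 40 samples in the labels, 39 were analysed here, 4 for each of 9 groups and 3 for mature 5dpr, so that n = 4 wherever no other number stands. The study's methods place baseline before the resection, whereas its labels place every sample after it. The design puts the ages and the stages side by side, and here the question asked of it was where the erythroid transcripts of the rib stood at each stage.

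The 39 libraries held between 6057756 and 21537070 counts. Levels are given as CPM, reads scaled to a common library total, after scaling by trimmed means (TMM), and every member was detected in every library, the lowest value being 2 reads of Klf1 in mature 5dpr replicate 3. Markers of other cell types moved between stages. Averaged over 20 genes of skeletal muscle, log2 CPM ran from 10.3 to 12.5 over the baseline and 0dpr libraries and from 8.29 to 10.3 over the later ones. Macrophage genes, summed over 9 of them, ran from 439 to 1602 CPM in the former libraries and from 1515 to 3486 CPM in the latter. The tissue was mixed, so fewer erythroid cells and less erythroid RNA per cell cannot be told apart in any value below. Reads of a member such as Gata1 that came from other cells of the tissue cannot be told apart either.

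Red cells form in the marrow from progenitors that carry the erythropoietin receptor, encoded by Epor. The transcription factors GATA1 and KLF1 switch on the erythroid programme, which then makes heme through ALAS2, the first enzyme of erythroid heme synthesis, packs the membrane with the anion exchanger band 3, encoded by Slc4a1, and fills the cell with hemoglobin, built from alpha and beta globin chains. Reticulocytes, the youngest red cells in the circulation, have lost their nucleus and still carry globin mRNA, whereas the mRNA of the nuclear factors belongs to earlier, nucleated stages.

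The globin genes lie as neighbouring copies. On GRCm38, with positions from GENCODE, Hba-a1 spans chromosome 11 from 32283511 to 32284465 on the plus strand and Hba-a2 from 32296489 to 32297298, with 12023 bases between them. Hbb-bs spans chromosome 7 from 103826534 to 103828096 on the minus strand and Hbb-bt from 103812524 to 103813996, with 12537 bases between them. The coding sequences of each pair, taken without the stop codon, differed at 1 base: 425 of 426 bases were identical between Hba-a1 and Hba-a2, and 440 of 441 between Hbb-bs and Hbb-bt. The stretch around that base is shown for the 4 genes because it is what a read within the coding part has to tell them apart, with the differing base in capitals. It covers coding bases 341 to 400 of the alpha globin pair, where the difference is at base 381, and coding bases 377 to 436 of the beta globin pair, where it is at base 417, counted from 1 at the start codon.
Hba-a1: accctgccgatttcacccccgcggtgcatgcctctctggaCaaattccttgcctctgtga
Hba-a2: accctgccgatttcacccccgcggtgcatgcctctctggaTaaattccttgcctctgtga
Hbb-bs: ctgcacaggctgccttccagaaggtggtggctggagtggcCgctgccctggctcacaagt
Hbb-bt: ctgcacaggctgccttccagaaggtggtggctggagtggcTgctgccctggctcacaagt

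Over whole transcripts the copies were less alike, since their ends differ. Of all windows of 150 bases, the read length, 48.4% of those in the Hba-a1 transcript also occurred in that of Hba-a2, and 65.7% of those in Hba-a2 occurred in Hba-a1. For the beta globin pair the shares were 58.7% of the Hbb-bs windows and 50.7% of the Hbb-bt windows. Reads from such windows name the pair but not the gene unless their mate falls elsewhere, so the split between paired globin genes is uncertain and the sum of each pair is given beside it.

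The promoters are printed because the members moved together through the stages. RefSeq promoter windows, 250 bases before to 50 after the start, were matched for 8 of the 9 members, all but Slc4a1, and the 200 bases before the start are shown for the 4 globin genes, Alas2 and Klf1. A set of 3 short motifs was searched on both strands: GATA, with TATC as its other strand, the core of sites bound by GATA factors; CACCC, which reads GGGTG on the other strand, the core of sites bound by KLF1 and its relatives; and TATAA, which reads TTATA on the other strand, the TATA box. Bases that belong to any match are in capitals, and neighbouring or overlapping matches form 1 run of capitals. Starts are those of RefSeq, and for these 6 genes the first base that GENCODE gives the gene lies inside the window shown. The windows, on GRCm38.p6, are chr11:32283472-32283671 on the plus strand for Hba-a1, chr11:32296292-32296491 on the plus strand for Hba-a2, chr7:103827929-103828128 on the minus strand for Hbb-bs, chr7:103813924-103814123 on the minus strand for Hbb-bt, chrX:150547217-150547416 on the plus strand for Alas2 and chr8:84901782-84901981 on the plus strand for Klf1.
Hba-a1: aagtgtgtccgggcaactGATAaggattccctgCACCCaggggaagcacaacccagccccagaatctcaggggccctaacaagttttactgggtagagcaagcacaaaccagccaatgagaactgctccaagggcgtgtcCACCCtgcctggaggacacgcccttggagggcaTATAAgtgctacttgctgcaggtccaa
Hba-a2: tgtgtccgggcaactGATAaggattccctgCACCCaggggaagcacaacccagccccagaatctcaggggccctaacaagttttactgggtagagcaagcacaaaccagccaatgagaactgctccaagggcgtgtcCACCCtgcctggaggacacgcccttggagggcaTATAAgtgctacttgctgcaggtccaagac
Hbb-bs: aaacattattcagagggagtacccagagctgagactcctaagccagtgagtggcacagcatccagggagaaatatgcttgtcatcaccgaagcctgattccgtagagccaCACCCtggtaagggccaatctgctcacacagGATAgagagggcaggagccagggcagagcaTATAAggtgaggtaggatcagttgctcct
Hbb-bt: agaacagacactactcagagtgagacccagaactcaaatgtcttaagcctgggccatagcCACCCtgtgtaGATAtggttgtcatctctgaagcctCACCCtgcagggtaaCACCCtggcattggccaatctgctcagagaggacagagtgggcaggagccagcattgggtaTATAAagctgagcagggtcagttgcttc
Alas2: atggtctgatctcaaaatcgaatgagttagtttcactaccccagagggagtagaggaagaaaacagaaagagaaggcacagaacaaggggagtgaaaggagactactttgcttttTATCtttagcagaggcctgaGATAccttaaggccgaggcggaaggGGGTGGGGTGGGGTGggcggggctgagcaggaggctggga
Klf1: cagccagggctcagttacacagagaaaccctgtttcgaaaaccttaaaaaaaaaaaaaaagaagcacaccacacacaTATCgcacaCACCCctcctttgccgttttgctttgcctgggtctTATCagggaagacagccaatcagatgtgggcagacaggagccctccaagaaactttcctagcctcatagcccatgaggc

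In these windows of 300 bases, 8 of 8 matched members held GATA and 8 of 8 held CACCC. Among all 32851 promoters of the table, 57.9% held GATA and 57.5% held CACCC, so that either motif is common in a window of this length. TATAA stood in 5 of 8, the 4 globin genes and Alas2, against 24.9% of all promoters. In each globin gene a match began 27 to 30 bases before the start. The Alas2 matches began 208 and 207 bases before it, outside the bases shown. The Hba-a1 and Hba-a2 promoters were identical over 247 of 247 bases once shifted by 3 bases against each other, whereas those of Hbb-bs and Hbb-bt matched at 127 of 249 bases at their best ungapped shift. A match is a run of letters and no measured binding.

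At baseline, the 4 globin genes together took between 1.31% and 2.03% of all counts in the immature libraries and between 1.74% and 2.21% in the mature ones. Per kilobase of annotated exon, the mean level at immature baseline was 12090 CPM for Hbb-bs, 4392 for Hba-a1, 3081 for Hbb-bt, 2454 for Hba-a2, 214 for Alas2, 150 for Slc4a1, 28.0 for Klf1, 12.3 for Gata1 and 10.0 for Epor. At mature baseline the order of these per-kilobase levels was the same, from 13841 for Hbb-bs to 14.7 for Epor. The exon lengths include bases shared by paired globin genes, so the order within a pair is uncertain.

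Hbb-bs, the adult beta globin gene with more counted reads, stood at 10676, 9301, 10200 and 6964 CPM in the immature baseline libraries (replicates 2, 3, 4 and 6). At 0dpr the immature libraries gave 2195, 7881, 8291 and 9669 CPM (replicates 1 to 4). At 2dpr they gave 1566, 1164, 1844 and 2403 CPM. The lowest 0dpr library, replicate 1, thus lay within the range of the 2dpr libraries, and the other 3 lay far above it. In mature mice the libraries gave 9888, 7970, 12940 and 11723 CPM at baseline, 6558, 14166, 8081 and 11917 CPM at 0dpr, and 1974, 705, 2516 and 1014 CPM at 2dpr (replicates 1 to 4 each time). The mature 0dpr and 2dpr libraries did not overlap. At 14dpr the values were 1928, 3455, 1242 and 1562 CPM in immature and 249.6, 1918, 980 and 1072 CPM in mature mice, with mature replicate 1 far below the rest.

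Hba-a1, the alpha globin gene with more counted reads, followed the same course. It stood at 5076, 3442, 3457 and 2292 CPM at immature baseline, at 656, 3085, 3272 and 5023 CPM at immature 0dpr, and at 882, 436, 644 and 782 CPM at immature 2dpr. In mature mice it stood at 3687, 3668, 4430 and 5895 CPM at baseline, at 3508, 5338, 3032 and 3746 CPM at 0dpr, and at 415, 212, 509.7 and 405 CPM at 2dpr. The mature groups before and after 0dpr were separate, and in the immature mice 1 library of 0dpr, replicate 1, lay among those of 2dpr. The copies with fewer counted reads, Hba-a2 and Hbb-bt, ranged over 392 to 2085 CPM and 324 to 2491 CPM in the baseline and 0dpr libraries of both ages. In all later ones they ranged over 36.2 to 630.5 CPM and 42.4 to 889 CPM.

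**Figure D1:**
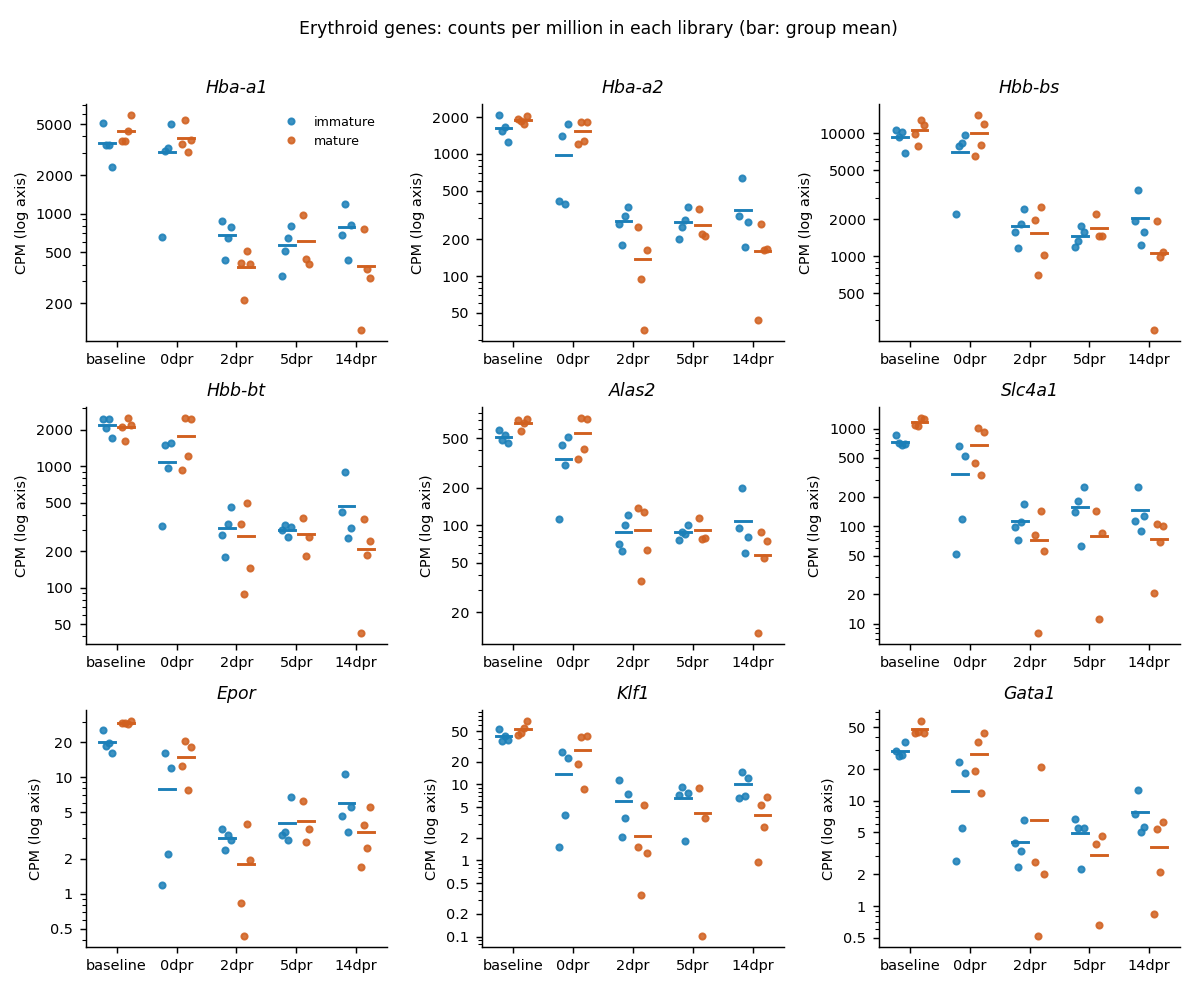
CPM (log axis) of each of the 9 erythroid genes in each of the 39 libraries, by stage and age; each point is a library and each bar a group mean. Every gene stood higher at baseline than at 14dpr in both ages with no overlap of libraries, and immature 0dpr replicate 1 (656 CPM of Hba-a1) lay near the later libraries.

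The heme and membrane genes moved with the globins. Alas2 stood at 583, 487, 529.8 and 458 CPM at immature baseline, at 113, 444, 306 and 511 CPM at immature 0dpr, and at 70.6, 61.9, 99.9 and 122 CPM at immature 2dpr. In mature mice it stood between 572 and 709 CPM at baseline, between 344 and 729.9 CPM at 0dpr and between 35.4 and 138 CPM at 2dpr, with no overlap between the last 2 of these groups. Slc4a1 stood at 853, 707, 677 and 698 CPM in immature baseline and at 1096, 1071, 1284 and 1247 CPM in mature baseline libraries. At immature 0dpr it was spread over 51.7, 663, 119.8 and 527 CPM, so that replicates 1 and 3 lay within or below the 72.8 to 167 CPM of immature 2dpr. The mature 0dpr libraries, at 445, 1021, 337 and 915 CPM, lay above the 80.9, 8.06, 143 and 55.6 CPM of mature 2dpr.

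The receptor and the nuclear factors were lower in abundance and more variable. Epor stood at 16.1 to 25.4 CPM at immature baseline and 28.6 to 30.4 CPM at mature baseline. At 0dpr it gave 1.20, 16.1, 2.18 and 12.0 CPM in immature and 12.5, 20.6, 7.76 and 18.2 CPM in mature libraries, and at 2dpr 3.56, 2.36, 3.18 and 2.90 CPM in immature and 0.826, 0.433, 4.00 and 1.94 CPM in mature libraries. Immature 0dpr replicates 1 and 3 were thus below all 4 immature libraries of 2dpr. Klf1 gave 52.9, 37.3, 42.8 and 38.5 CPM at immature baseline, 1.49, 26.6, 3.91 and 22.3 CPM at immature 0dpr, and 11.3, 2.03, 3.60 and 7.55 CPM at immature 2dpr. In mature mice it gave 45.0, 47.8, 54.4 and 68.4 CPM at baseline, 18.8, 42.3, 8.75 and 43.5 CPM at 0dpr, and 1.49, 0.346, 5.33 and 1.25 CPM at 2dpr. The immature 0dpr libraries therefore fell on both sides of the 2dpr ones, whereas the mature libraries of the 2 stages were separate.

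Gata1 resembled Klf1 with an exception at mature 2dpr. It gave 29.7, 26.5, 27.2 and 36.5 CPM at immature baseline, 2.69, 23.2, 5.46 and 18.4 CPM at immature 0dpr, and 3.98, 2.36, 3.35 and 6.62 CPM at immature 2dpr. In mature mice it gave 44.2, 45.1, 57.3 and 44.0 CPM at baseline, 19.1, 36.0, 11.9 and 44.2 CPM at 0dpr, and 2.64, 0.520, 20.9 and 2.04 CPM at 2dpr. Replicate 3 of mature 2dpr lay within the range of mature 0dpr, and the other 3 lay below it.

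The change from 0dpr to 2dpr was tested with edgeR's quasi-likelihood test over all 21204 genes with Benjamini-Hochberg adjustment. In immature mice 7 of 9 members fell, against 22.2% of all genes tested, and none rose. The largest fall among them was that of Hba-a1, by 2.13 ± 0.45 (SE) on the log2 scale or 4.39-fold (adjusted p = 0.000207). Hbb-bs fell by 2.01 ± 0.44 on that scale (adjusted p = 0.000277), Alas2 by 1.96 ± 0.43 (adjusted p = 0.000296), and Epor by 1.38 ± 0.54 (adjusted p = 0.0369). Gata1, with a log2 fold change of -1.61 ± 0.69 (adjusted p = 0.0575), and Klf1, with -1.15 ± 0.73 (adjusted p = 0.204), did not pass. The libraries of the 2 groups overlapped in 8 of the 9 genes, all but Hba-a2, whereas for 18% of all genes those of 2dpr lay wholly below. Slc4a1 and Epor no longer passed when any of 5 and of 6 of the 8 libraries was left out. Without 0dpr replicate 2, the log2 fold change was -1.03 for Slc4a1 (adjusted p = 0.222), -0.72 for Epor (adjusted p = 0.312) and -0.56 for Klf1 (adjusted p = 0.595). Gata1 passed without 0dpr replicate 1 (adjusted p = 0.0264), without 0dpr replicate 3 (0.0352) and without 2dpr replicate 4 (0.0462), and with DESeq2, which called 8 of 9.

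In mature mice 9 of 9 members fell from 0dpr to 2dpr, against 24.9% of all genes tested. The 2dpr libraries lay wholly below those of 0dpr for 8 of the 9, against 19.9% of all genes. Klf1 fell by 3.84 ± 0.80 on the log2 scale or 14.3-fold (adjusted p = 0.000151), and Hba-a2 by 3.48 ± 0.50 or 11.2-fold (adjusted p = 4.35e-07). Slc4a1 fell 9.49-fold (adjusted p = 0.000196), Epor 8.36-fold (adjusted p = 2.4e-05) and Hbb-bs 6.56-fold (adjusted p = 4.62e-06). Gata1 fell 4.44-fold (adjusted p = 0.00814), and with only the 8 libraries of this comparison in the fit it did not pass (adjusted p = 0.0983). Without replicate 3 of 2dpr the falls were 15.6-fold for Gata1 (adjusted p = 5.91e-06), 26.4-fold for Klf1 (adjusted p = 4.72e-05) and 12.7-fold for Epor (adjusted p = 4.84e-06). The median log2 fold change over the members was -3.06, and over all genes tested it was -0.05. In immature mice the members' median was -1.80, beside -0.04 over all genes.

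Summed pairs of globin genes, in which a counted read cannot be misplaced between the copies, fell likewise. The sum does not recover reads that fit both copies and were not counted, and their number was not examined. Hba-a1 plus Hba-a2 fell 4.13-fold in immature mice (adjusted p = 0.000164) and 10.4-fold in mature mice (adjusted p = 9.72e-08). Hbb-bs plus Hbb-bt fell 3.94-fold (adjusted p = 0.000408) and 6.57-fold (adjusted p = 6.2e-06).

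Skeletal muscle genes moved at the same step: 20 of 20 fell from 0dpr to 2dpr in each age, with median log2 fold changes of -2.77 in immature and -3.26 in mature mice. Their summed level ran from 71817 to 149810 CPM at immature 0dpr and from 13871 to 20816 CPM at immature 2dpr, and from 82021 to 166400 CPM at mature 0dpr and from 9872 to 20425 CPM at mature 2dpr. With the mean log2 CPM of these genes as a covariate in the same test, 0 of 9 members passed in either age, at log2 fold changes from -1.26 to -2.23 in immature and from -2.15 to -4.53 in mature mice. That covariate follows the stage closely, and the number of genes called over the whole table went from 9324 to 1484 in immature and from 10100 to 1115 in mature mice. Among cells of the marrow, 7 of 9 B lineage genes fell in immature and 9 of 9 in mature mice, and 8 of 10 and 9 of 10 genes of megakaryocytes and platelets fell. The summed level of the megakaryocyte and platelet genes did not fall with them. Its means at 0dpr and 2dpr were 247 and 440 CPM in immature and 549 and 566 CPM in mature mice. Of 9 genes of neutrophil precursors 0 passed in immature mice and 1 fell in mature mice, with median log2 fold changes of -0.95 and -0.98. The part of tissue makeup in the members' change was not tested further.

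**Figure D2:**
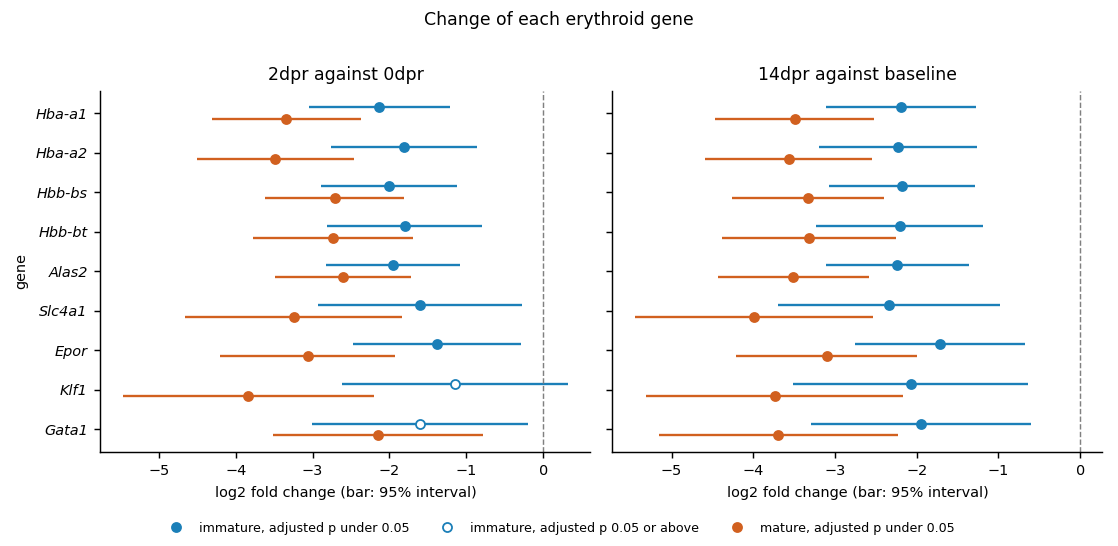
Log2 fold change of each of the 9 erythroid genes from 0dpr to 2dpr (left) and from baseline to 14dpr (right), in immature and mature mice. Bars are 95% intervals derived from the F statistic of edgeR's test, and open circles mark genes at an adjusted p of 0.05 or above. The 36 estimates all lie below 0, from -1.15 for Klf1 to -3.99 for Slc4a1, and only Klf1 and Gata1 of immature mice at 2dpr are open.

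**Figure D3:**
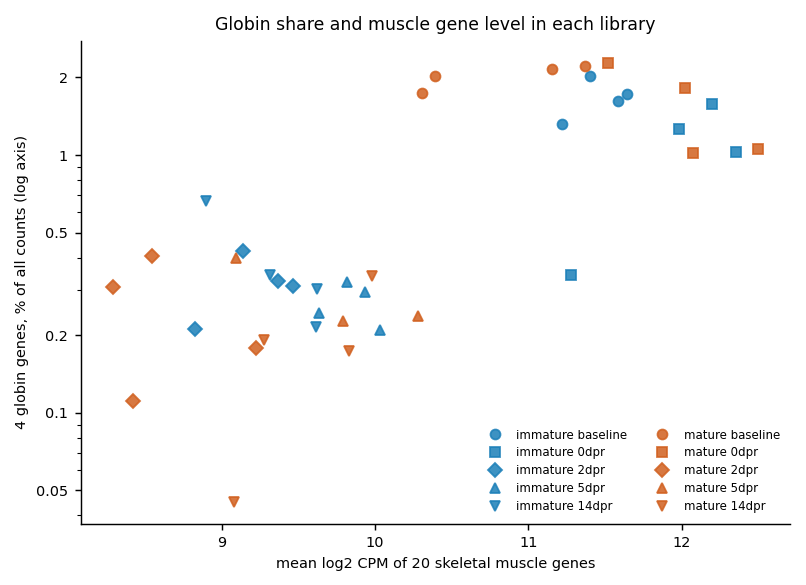
Share of all counts in the 4 globin genes (log axis) against log2 CPM averaged over 20 genes of skeletal muscle; each point is a library, with the shape giving the stage and the colour the age. Baseline and 0dpr libraries lie at muscle levels of 10.3 to 12.5 and, apart from immature 0dpr replicate 1 at 0.344%, at globin shares above 1%.

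At 0dpr no member passed the test against baseline. From baseline to 0dpr 0 of 9 members were called in immature mice, against 10.6% of all genes, and 0 of 9 in mature mice, against 22.5%, by edgeR and by DESeq2 alike. At an unadjusted p under 0.05 edgeR gave 3 members in immature mice, namely Epor, Klf1 and Hbb-bt, and 0 in mature mice, beside 25.9% and 34.5% of all genes, and DESeq2 gave the same 2 counts. The log2 fold changes at this step ran from -0.25 for Hba-a1 to -1.66 for Klf1 in immature mice and from -0.06 for Hbb-bs to -0.99 for Epor in mature mice. All libraries of 0dpr were below all of baseline for 4 members in immature mice (Hbb-bt, Slc4a1, Klf1 and Gata1) and for 3 in mature mice (Slc4a1, Epor and Klf1), beside 6.73% and 11.5% of all genes. Without immature 0dpr replicate 2, Epor (log2 fold change -2.01, adjusted p = 0.0116) and Klf1 (-2.26, adjusted p = 0.0456) passed. Of 20 muscle genes 1 was higher at 0dpr than at baseline in immature and 19 in mature mice, and 0 were lower.

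After 2dpr no member passed the test from one stage to the next. From 2dpr to 5dpr 0 of 9 were called in immature mice, where 8.05% of all genes were, and 0 of 9 in mature mice, where 14.5% were. From 5dpr to 14dpr 0 of 9 were called in either age, beside 3.18% and 4.18% of all genes. By an unadjusted p under 0.05 edgeR gave 0, 1, 0 and 0 members in these 4 comparisons and DESeq2 the same, where edgeR gave 19.9%, 27.6%, 14% and 18.4% of all genes. The 1 was Epor in mature mice from 2dpr to 5dpr, with means of 1.80 and 4.23 CPM (log2 fold change 1.25 ± 0.59, adjusted p = 0.159), and without mature 2dpr replicate 3 it passed, at 1.85 (adjusted p = 0.0417). The 4 globin genes took between 0.111% and 0.423% of counts at 2dpr, between 0.209% and 0.399% at 5dpr and between 0.0452% and 0.661% at 14dpr.

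By 14dpr 9 of 9 members were lower than at baseline in both ages, against 15.1% of all genes in immature and 16.4% in mature mice, and in each age the 14dpr libraries lay wholly below those of baseline for all 9, as they did for 18.9% of all genes in immature and 18.4% in mature mice. In immature mice the falls ran from 3.28-fold for Epor (adjusted p = 0.00953) to 5.05-fold for Slc4a1 (adjusted p = 0.00644), with Hbb-bs at 4.54-fold (adjusted p = 0.000169) and Alas2 at 4.72-fold (adjusted p = 9.33e-05). In mature mice they ran from 8.58-fold for Epor (adjusted p = 2.49e-05) to 15.9-fold for Slc4a1 (adjusted p = 3.42e-05), with Hbb-bs at 10.1-fold (adjusted p = 4.91e-07), Klf1 at 13.3-fold (adjusted p = 0.00022) and Gata1 at 12.9-fold (adjusted p = 0.000103). The members' median log2 fold change was -2.19 in immature and -3.51 in mature mice.

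Muscle genes were lower at 14dpr as well, 20 of 20 in immature and 17 of 20 in mature mice. With the muscle level as a covariate 1 of 9 members, Alas2, passed in immature mice (log2 fold change -2.43, adjusted p = 0.047) and 9 of 9 in mature mice. The log2 fold changes with it ran from -1.52 for Hba-a1 to -2.82 for Slc4a1 in immature and from -3.14 for Hbb-bs to -4.26 for Slc4a1 in mature mice, and the number of genes called over the whole table went from 6667 to 1759 and from 7113 to 4919. Leaving out immature 14dpr replicate 1 or replicate 3 left Klf1 above the threshold in immature mice (adjusted p = 0.0687 and 0.0677), and leaving out replicate 1, 3 or 4 did so for Gata1 (adjusted p = 0.0522, 0.0682 and 0.0625). All 9 genes of neutrophil precursors were lower at 14dpr than at baseline in both ages, as were 9 of 10 of megakaryocytes and platelets, and of 9 B lineage genes 2 in immature and 5 in mature mice were lower and 1 in each was higher.

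No member passed the test between the ages. Of the 9 members 0 were called between immature and mature mice at baseline (0.585% of all genes were called), at 0dpr (0.726%), at 2dpr (0.627%), at 5dpr (0%) and at 14dpr (0.00943%). An unadjusted p under 0.05 was reached by 0, 0, 2, 0 and 5 members in that order with edgeR and by 0, 0, 1, 0 and 5 with DESeq2, whose adjusted calls were also 0, and by 11.7%, 10.7%, 13.3%, 5.1% and 4.57% of all genes with edgeR. At baseline the immature means were lower in 8 of 9 genes, with Slc4a1 at 734 ± 80.6 CPM (SD) in immature and 1175 ± 107 CPM in mature mice (log2 fold change -0.68, 95% interval -1.97 to 0.61). Gata1, at 30.0 ± 4.54 and 47.6 ± 6.44 CPM, and Epor, at 19.9 ± 3.93 and 29.3 ± 0.775 CPM, also had all immature libraries below all mature ones, as did 4.63% of all genes. With only the 8 baseline libraries in the fit, Slc4a1 and Gata1 passed (adjusted p = 0.0271 for each), and 471 genes were called in place of 124. At 0dpr, where equal replicate numbers deviated together, the immature library of each pair was the lower in 4 of 4 pairs for 7 members, all but Hba-a1 and Hbb-bs. With the replicate number as a block, 1 member had an unadjusted p under 0.05 in edgeR's fit of all libraries and 7 had one with only those 8 libraries in the fit, where the adjusted p ran from 0.182 for Gata1 to 0.841 for Hba-a1. Over all genes, 122 and 25 were called in those fits, in that order. The shares of all genes lower in 4 of 4 pairs, or under that unadjusted p with the block, are not given here. The members also vary together between libraries, so they do not count as separate observations.

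At 14dpr the direction was the opposite, and all 9 log2 fold changes of immature against mature mice were positive, from 0.83 for Epor to 1.33 for Klf1. Hbb-bs averaged 2047 CPM in immature and 1055 CPM in mature mice (log2 fold change 0.96, 95% interval 0.10 to 1.82, unadjusted p = 0.0305 and adjusted p = 1 in edgeR's test). The libraries overlapped for every member. Immature replicate 2, at 3455 CPM of Hbb-bs, and mature replicate 1, at 249.6 CPM, widened the difference of the Hbb-bs means. The Hbb-bs medians were 1745 CPM in immature and 1026 CPM in mature mice, in the same direction. At 2dpr the members' means did not share a direction, since Klf1 averaged 6.12 CPM in immature and 2.10 CPM in mature mice and Gata1 4.08 and 6.52 CPM. The mature mean of Gata1 rests on replicate 3, at 20.9 CPM. Its medians were 3.66 CPM in immature and 2.34 CPM in mature mice, in the direction of Klf1. Alas2 averaged 88.5 CPM in immature and 91.0 CPM in mature mice.

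Whether the change itself differed between ages was tested as an interaction, and 0 of 9 members passed at any step. The share of all genes called was 0.0141% for the change from baseline to 0dpr, 0.0613% from 0dpr to 2dpr, 0% from 2dpr to 5dpr, 0% from 5dpr to 14dpr and 0.0472% from baseline to 14dpr. The fold changes from 0dpr to 2dpr were less negative in immature than in mature mice for 9 of 9 members, by 0.54 for Gata1 to 2.69 ± 1.06 (SE) for Klf1 on the log2 scale (unadjusted p = 0.0159 and adjusted p = 0.328 for Klf1 in edgeR's test). From baseline to 14dpr the difference ran from 1.11 for Hbb-bt to 1.74 for Gata1, with adjusted p from 0.599 to 0.724. An unadjusted p under 0.05 was reached by 0, 3, 0, 0 and 3 members in the order given with edgeR, and by 0, 4, 0, 0 and 4 with DESeq2, beside 8.07%, 11.2%, 8.09%, 4.25% and 7.98% of all genes with edgeR. The 95% interval for Hbb-bs ran from -0.06 to 2.36 from baseline to 14dpr, so that it held 0 as well as sizeable differences.

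A wider list of 37 erythroid genes outside the 9 members was read the same way, and 36 of them were tested, all but Ahsp. From 0dpr to 2dpr 28 of 36 fell in immature and 33 of 36 in mature mice, against 22.2% and 24.9% of all genes, and 0 rose. Of 10 genes of the membrane and its skeleton 9 and 10 fell, of 8 of heme and iron handling 7 and 7, of 8 nuclear factors 4 and 7, and of 10 genes of late maturation 8 and 9. The largest falls were of Trim58, a ubiquitin ligase of late erythroblasts, 7.04-fold in immature (adjusted p = 0.00238) and 16.6-fold in mature mice (adjusted p = 4.06e-05). They rest on low levels, with means of 4.87 and 0.671 CPM at immature 0dpr and 2dpr and 6.97 and 0.357 CPM at mature 0dpr and 2dpr. Next came Tmod1, which caps actin filaments in red cells and in muscle, with a fall of 6.10-fold in immature mice (adjusted p = 1.6e-11), and Epb42, a protein of the red cell membrane, with 10.2-fold in mature mice (adjusted p = 0.000134).

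From baseline to 14dpr 35 of the 36 fell in each age, against 15.1% of all genes in immature and 16.4% in mature mice. The exception was Steap3, a reductase that frees iron for heme and is also made outside red cells, which rose from 38.6 to 63.7 CPM in immature (adjusted p = 0.000235) and from 37.3 to 61.8 CPM in mature mice (adjusted p = 0.0002), as 16.4% and 17.1% of all genes did. Trim58 again led the falls, 5.85-fold in immature (adjusted p = 0.00483) and 19.1-fold in mature mice (adjusted p = 3.32e-05), to low means of 1.26 and 0.677 CPM. Kel, a blood group protein, fell 17.6-fold in mature mice (adjusted p = 5.85e-05).

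At 0dpr against baseline, where 0 of the 9 members were called, 8 of the 36 genes fell in immature mice, against 4.66% of all genes, and 3 fell in mature mice, against 10.6%, with 1 higher there, against 11.9%. Nfe2, a factor of erythroid cells and megakaryocytes, fell 2.70-fold (adjusted p = 0.0464) and Tal1, a factor of early blood cells, 2.22-fold (adjusted p = 0.0435) in immature mice. In mature mice Bcl11a fell 2.43-fold (adjusted p = 0.0417) and Slc25a38, a mitochondrial glycine carrier, 1.61-fold (adjusted p = 0.0346), while Tmod1 rose from 114 to 196 CPM (adjusted p = 0.00706). From 2dpr to 5dpr 3 of 36 rose and 1 fell in each age, where 4.37% of all genes rose and 3.68% fell in immature and 8.16% rose and 6.38% fell in mature mice. Tmod1 rose in both (log2 fold change 0.87 and 0.96, adjusted p = 0.00805 and 0.00376), as did Ank1, an ankyrin of red cells with forms in muscle (0.84 and 1.16, adjusted p = 0.00611 and 0.000247), and Bcl2l1, a survival factor, fell (1.67-fold and 2.00-fold, adjusted p = 0.0121 and 0.00107). Muscle genes were higher at 5dpr than at 2dpr, 4 of 20 in immature and 12 of 20 in mature mice. From 5dpr to 14dpr Aqp1 (log2 fold change 0.59, adjusted p = 0.0142) and Steap3 (0.56, adjusted p = 0.0281) rose and Ank1 fell (-0.75, adjusted p = 0.0293) in immature mice, where 1.73% of all genes rose and 1.45% fell, and 0 of 36 were called in mature mice. Between the ages, 0 of 36 were called at any stage.

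Over the 39 libraries, the genes most like the members' mean pattern included Slc43a1 (Pearson r = 0.98), Tspan33, Mfsd2b, Tmcc2, Abcb10 and Fam117a (r = 0.97 for each of the last 5), out of 16138 genes with a mean of at least 1 CPM. Tspan33 and Abcb10 are in the wider erythroid list, and the 39 points share the step between early and late stages, so that r describes that step as much as anything within a group.

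Within a library the members kept some proportions and lost others. Alpha globin took 30.5% of the globin reads in the median library, and 38 of 39 libraries lay between 22.5% and 38.7%. Hba-a2 took 30.9% of the alpha globin reads in the median library. It took 10.7% in immature 0dpr replicate 3, where Hba-a1 stood at 3272 CPM and Hba-a2 at 392 CPM, and 6.63% in mature 2dpr replicate 3, where they stood at 509.7 and 36.2 CPM, and between 23.2% and 38.6% in the other 37. Mature 2dpr replicate 3 was also the library with the least alpha globin, 15.3% of globin reads, and with Gata1 at 20.9 CPM. Hbb-bt took between 10.5% and 20.5% of beta globin reads over all libraries. With both of these libraries left out, 8 of 9 members fell from 0dpr to 2dpr in immature and 9 of 9 in mature mice.

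The ratio of globin reads to reads of Klf1 and Gata1 together set some libraries apart. It ran from 163 to 256 at immature baseline and from 163 to 198 at mature baseline. The 7 highest values were 858 and 1379 in immature 0dpr replicates 1 and 3, 728 in immature 5dpr replicate 4, 659 in mature 0dpr replicate 3, 721 and 1273 in mature 2dpr replicates 1 and 2, and 3034 in mature 5dpr replicate 3. The last of these rests on 15 reads of Klf1 and Gata1, and that of mature 2dpr replicate 2 on 10. The same 7 libraries had the 7 highest ratios of Alas2 to Slc4a1 reads, in that order 2.19, 2.55, 1.35, 1.23, 1.70, 4.40 and 7.00, against 0.513 to 0.782 over the 8 baseline libraries. At 14dpr the globin ratio ran from 165 to 236 in immature and from 138 to 347 in mature mice, where 3 of the 4 libraries lay above all of mature baseline. The Alas2 ratio ran from 0.639 to 0.844 in immature and from 0.653 to 0.839 in mature mice, and the 4 mature values lay above the 0.513 to 0.642 of mature baseline. In the libraries with high ratios globin mRNA was thus abundant relative to the mRNA of the nuclear factors, and Alas2 mRNA relative to that of band 3. The cause was not tested.

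**Figure D4:**
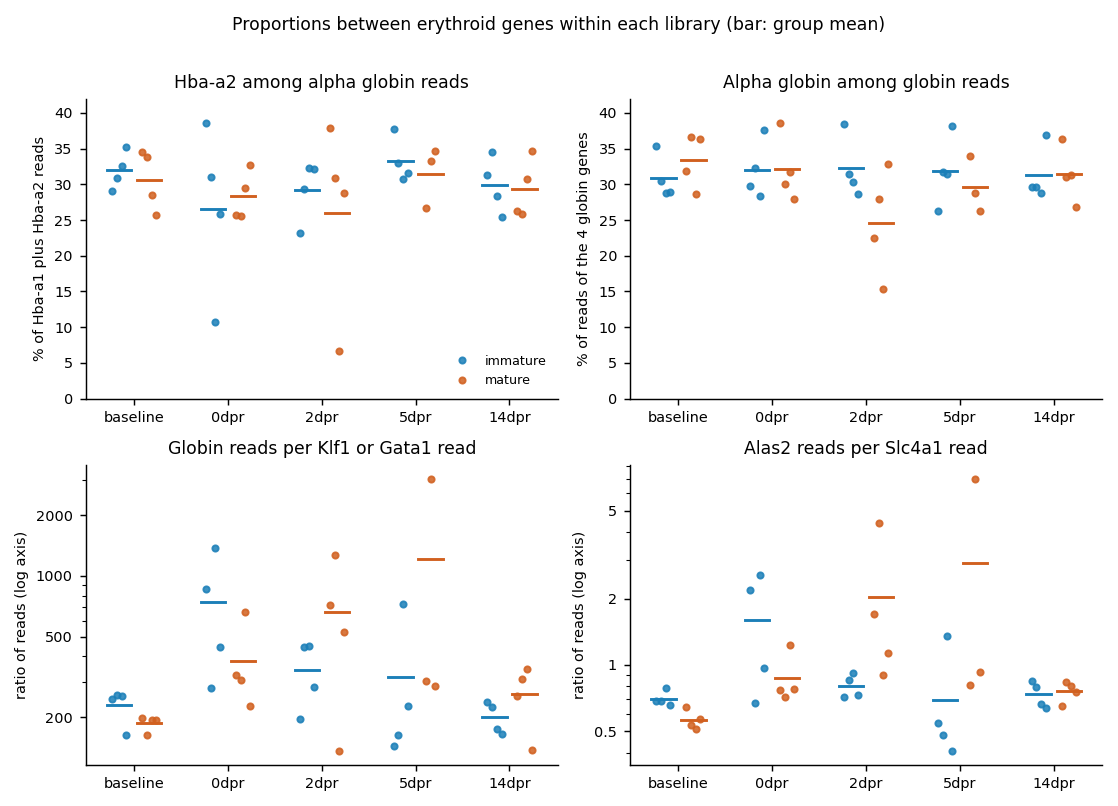
Proportions between members within each library, by stage and age: the share of Hba-a2 among alpha globin reads and of alpha globin among all globin reads (both in %), and the ratios of globin reads to Klf1 plus Gata1 reads and of Alas2 to Slc4a1 reads (log axes); each point is a library and each bar a group mean. Immature 0dpr replicate 3 (10.7%) and mature 2dpr replicate 3 (6.63%) stand apart in the first panel, and mature 5dpr replicate 3 is highest in both lower panels, at 3034 and 7.00.

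After subtraction of group means, members still varied together over the 39 libraries. The correlation of these deviations in log2 CPM was r = 0.98 between Hbb-bt and Alas2, 0.96 between Hbb-bs and Hbb-bt, and 0.93 between Slc4a1 and Klf1. It was 0.65 between Hba-a1 and Hba-a2 and 0.29 between Hba-a2 and Gata1, the lowest of the 36 pairs of members. The points share their libraries and depth, and these values are a description.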

How the data were processed

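RNA was measured in bulk rib tissue by stranded paired-end sequencing of 150 bases, aligned by the authors with STAR 2.5.2a to GRCm38. The deposited counts are whole reads per gene, in a full table and in a filtered one whose filter is not given in the sources used here. The authors also deposited a signal, CPM scaled by trimmed means (TMM), which equals edgeR's TMM CPM of the filtered counts. The submitters' processing notes also name DESeq2, edgeR and limma. Library runs are not given, so a sequencing batch could not be examined. A single row of the filtered table names a vector and no mouse gene and was kept, as in the deposited signal.

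The filtered counts of 39 libraries were fitted in edgeR 4.0.16 (R 4.3.3) with TMM scaling, 1 coefficient for each of 10 groups and quasi-likelihood F tests. Adjustment (Benjamini-Hochberg) ran over all 21204 genes, with calls under 0.05, for 5 comparisons of age, 10 of stage and 5 of the difference between ages. The samples are separate per the labels, which do not say more, so p-values measure the spread between them. The members, gene lists and tests were chosen with earlier results of these data known. Besides the members, the genes named are the 2 with the largest changes among the called genes of the wider erythroid list in each comparison and direction, and some genes that this rule or the likeness of pattern names are not reported here. Promoters came from RefSeq and transcripts from GENCODE. Replicate numbers paired the samples by deviations from group means only between the ages at 0dpr (4 pairs, correlations 0.178 to 0.296), and there the block changed no call: 0 of 9 members passed with it, in the full fit and in a fit of only those libraries. Alternatives were RLE size factors, DESeq2 1.42.0, other filters, the replicate block, muscle as a covariate, globin genes left out of the scaling, only the libraries compared and leaving out each library. Klf1, Gata1 and Epor rest on few reads in some libraries.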

Additional observations from a re-analysis of the deposited data

Results flagged for a closer look

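In 135 sets of group and measure, the lowest or highest of 4 libraries was compared with the others by Dixon's ratio, and 10 stood apart, where chance gives about 1 in 20. At immature baseline, Slc4a1 was 853 CPM in replicate 2 (677 to 707 CPM in the others), and there were 163 globin reads per Klf1 and Gata1 read in replicate 6 (245 to 256). At mature baseline, Gata1 was 57.3 CPM in replicate 3 (44.0 to 45.1 CPM), and the same globin ratio was 162.8 in replicate 2 (193 to 198). In mature baseline replicate 3 the genes of mast cells and eosinophils summed to 1814 CPM, against 302 to 609 CPM in the others of its group. At 0dpr, the ratio of Alas2 to Slc4a1 reads was 1.23 in mature replicate 3 (0.715 to 0.781). At 2dpr, Gata1 was 20.9 CPM in mature replicate 3 (0.520 to 2.64 CPM). At immature 5dpr, Epor was 6.77 CPM in replicate 5 (2.89 to 3.38 CPM), and replicate 4, the deepest library of all, had 728 globin reads per Klf1 and Gata1 read (144 to 228) and a ratio of Alas2 to Slc4a1 of 1.35 (0.406 to 0.546). At immature 14dpr, alpha globin was 37.0% of globin reads in replicate 4 (28.8% to 29.6%). The causes were not tested.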

How the results depend on the processing

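Single-gene results were recomputed under the alternatives for the changes from 0dpr to 2dpr and from baseline to 14dpr in each age. Of these 610 results, all kept their direction and 557 their side of the threshold. The other comparisons, with smaller changes, are not among them. The count of members called moved as follows. With only the libraries compared in the fit, it was 2 in place of 0 for age at baseline (Slc4a1 and Gata1) and 1 for 0dpr against baseline in mature mice (Epor). With muscle as a covariate it was 0 from 0dpr to 2dpr in each age and 1 from baseline to 14dpr in immature mice, where fewer genes were called over the whole table. With both libraries of low Hba-a2 share left out, an alternative added after the data were seen, it was 1 from 2dpr to 5dpr in mature mice (Epor). Leaving out 1 library at a time gave 0 to 2 for 0dpr against baseline in immature mice, 0 to 1 from 2dpr to 5dpr in mature mice, 5 to 8 and 9 to 9 from 0dpr to 2dpr, and 7 to 9 and 9 to 9 from baseline to 14dpr. With the replicate block 5 and 9 members fell from 0dpr to 2dpr and 8 and 9 from baseline to 14dpr, where equal replicate numbers did not deviate together in every pair, so that samples share only a number; at the other steps the block changed no count. Counts over all genes moved more. With only the libraries compared they went from 124 to 471 for age at baseline, from 154 to 0 at 0dpr, from 133 to 4 at 2dpr, from 0 to 6 at 5dpr and from 2 to 5 at 14dpr, and for stages from 2257 to 48 (0dpr against baseline, immature), from 10100 to 6119 (2dpr against 0dpr, mature), from 1707 to 2988 and from 3084 to 714 (5dpr against 2dpr), from 674 to 1875 and from 886 to 2589 (14dpr against 5dpr), and for the difference between ages from 3 and 13 to 0 and 0 up to 2dpr and from 10 to 180 from baseline to 14dpr. DESeq2 called 334, 349, 428, 33 and 32 for age in the order of stages, 1029 and 1386 from 5dpr to 14dpr, and 28, 111, 36, 5 and 59 for the difference between ages. With muscle as a covariate the counts were 66 and 283 for age at baseline and 2dpr, 1065 and 255 for 0dpr against baseline, 1503 from 2dpr to 5dpr in mature mice and 7 for the difference between ages at that step. With the block they were 802 for 0dpr against baseline in immature mice and 8 for the difference between ages from 0dpr to 2dpr. Without both libraries of low Hba-a2 share they were 456 for age at 0dpr, 1395 for 0dpr against baseline in immature mice, and 16 and 0 for the difference between ages up to 2dpr. Without a filter they were 5 for age at 14dpr and 21 and 2 for the difference between ages at 2dpr and 14dpr, where RLE size factors gave 6 from baseline to 14dpr. With the block and only the libraries compared, 25 genes were called for age at 0dpr. Few reads limit Klf1, at 2 reads in mature 5dpr replicate 3 and 4 in mature 2dpr replicate 2. Those libraries were not shallow, with 20136183 and 11439307 counts against a median of 9087417.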

Other observations

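Other cells of the blood took courses of their own beside the erythroid genes. Of 10 genes of megakaryocytes and platelets, 6 were lower at 0dpr than at baseline in immature and 1 in mature mice, with median log2 fold changes of -1.06 and -0.71. Of 9 genes of neutrophil precursors, 1 in immature and 6 in mature mice were lower at that step (medians -1.31 and -1.84). Mast cell and eosinophil genes, of which 9 were tested, gave 0 calls at that step in immature and 2 lower in mature mice, and 1 higher with 2 and 4 lower from 0dpr to 2dpr. Differences between the ages in these counts were not tested.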
